A study of Mus musculus with 4 samples.

Results

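The 9 interferon-stimulated genes described here are Ifit1, Ifit2, Ifit3, Isg15, Irf7, Stat2, Usp18, Rsad2 and Bst2. They were taken by name from a deposited expression table of 13903 genes, and all 9 were found there, under the Ensembl identifiers ENSMUSG00000034459 (Ifit1), ENSMUSG00000045932 (Ifit2), ENSMUSG00000074896 (Ifit3), ENSMUSG00000035692 (Isg15), ENSMUSG00000025498 (Irf7), ENSMUSG00000040033 (Stat2), ENSMUSG00000030107 (Usp18), ENSMUSG00000020641 (Rsad2) and ENSMUSG00000046718 (Bst2). RNA of whole mouse liver had been sequenced by bulk mRNA-seq. All mice were OGT-floxed animals on the C57BL/6J background and ate a CDE diet (choline-deficient and supplemented with ethionine), a model of liver injury. Those labelled OGT-KO had been given AAV8-TBG-CRE, a viral vector whose TBG promoter drives Cre recombinase in hepatocytes, and those labelled control had been given AAV8-TBG-eGFP, which carries a fluorescent protein in place of Cre. The age of the mice is not given in the sources used here. Livers were collected either with no recovery from the diet or 7 days into recovery. Every condition, of 4, was 1 library of RNA pooled equally from 3 mice, so no value below has a replicate error, no p-value is given, and a difference compares single libraries. Values are CPM, reads of a gene scaled to a total of 1000000 for each library, and intervals in parentheses are exact 95% intervals (Poisson for levels, binomial for ratios) that cover counting error only.

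Type I and type III interferons signal through receptor-bound JAK kinases to a complex that holds STAT2 and IRF9, which enters the nucleus and binds the interferon-stimulated response element (ISRE) in front of its target genes. Interferon gamma acts chiefly through another element, the gamma-activated sequence (GAS). The induced genes encode proteins that bind or degrade viral RNA, conjugate the ubiquitin-like protein ISG15, hold back budding virus or restrain the pathway itself, and in the liver both hepatocytes and resident macrophages can express them.

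The libraries held 19972699 to 22866431 reads on the listed genes, and 3 reads, taken as the smallest amount that the depth can show, corresponded to 0.131 to 0.1502 CPM. Ogt, the gene targeted by Cre, was at 55.3 CPM in the OGT-KO-labelled library and 64.7 in the control-labelled library with no recovery, but at 77.7 and 55.7 after 7 days. The order at 7 days went against the label with the deposited scaling, but with median-ratio scaling (below) Ogt was lower in the OGT-KO-labelled library at both times, by log2 changes of -0.93 and -0.20. The table does not separate reads of the deleted exons from the rest, and libraries are named by their labels throughout. The summed CPM of 6 hepatocyte markers was 52857, in the OGT-KO-labelled library with no recovery, to 87544, in the control-labelled library after 7 days, so the markers of the main liver cell were abundant in every library. With the deposited scaling, the median of all 8963 genes averaging at least 10 CPM was itself higher in the OGT-KO-labelled libraries, by 0.51 on the log2(CPM + 1) scale with no recovery and by 0.48 after 7 days. The 100 most abundant genes took 34.1% and 34.3% of the reads in the OGT-KO-labelled libraries, against 42.8% and 45.0% in those labelled control. Changes between the labels are therefore also set against that of the median gene or given under scaling by median ratios (each library against the geometric mean of all), which centres most genes near no change.

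The ISRE core was looked for in the promoters of the 9 genes, because it is the element by which the pathway is known to act. Promoter windows of 250 bases before to 50 bases after each annotated start came from RefSeq (GRCm38.p6), and 8 of the 9 genes had a window. Usp18 had none. The core was searched as GAAANNGAAA, or TTTCNNTTTC on the other strand, and was held by 6 of the 8 genes with a window, namely Ifit1, Ifit3, Isg15, Stat2, Rsad2 and Bst2. It was held by 3.44% of all 32851 windows (1131 windows). The stretch around each match is shown from 5′ to 3′ along the gene's own strand, with the matches in capitals. Neighbouring matches ran together in Isg15 (3 matches) and Bst2 (2 matches).
Ifit1, chr19:34640769-34640828, plus strand: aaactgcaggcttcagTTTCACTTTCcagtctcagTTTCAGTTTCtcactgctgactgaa
Ifit3, chr19:34583363-34583426, plus strand: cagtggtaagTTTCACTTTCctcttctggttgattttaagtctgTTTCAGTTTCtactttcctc
Isg15, chr4:156200856-156200915, minus strand: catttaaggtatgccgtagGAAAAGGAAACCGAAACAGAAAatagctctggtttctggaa
Stat2, chr10:128270251-128270310, plus strand: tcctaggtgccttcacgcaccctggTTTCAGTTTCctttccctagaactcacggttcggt
Rsad2, chr12:26456538-26456597, minus strand: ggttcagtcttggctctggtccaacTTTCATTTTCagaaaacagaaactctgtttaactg
Bst2, chr8:71537565-71537624, minus strand: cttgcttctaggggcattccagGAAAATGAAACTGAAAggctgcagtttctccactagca

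The match nearest to a start was that of Isg15, whose last base was at position -57 from it, and the farthest was that of Stat2, from -222 to -213. Neither Ifit2, with 2 windows, nor Irf7 held these letters. The GAS, searched as TTCNNNGAA, which reads the same on both strands, was in 1 of the Ifit2 windows, from position -241, and in that of Bst2, from position -136 and overlapping the ISRE match. It was in 8.30% of all windows (2726 windows). A match is a description of the letters and not a measured binding site.

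The genes of the set that encode RNA-binding and antiviral proteins were higher in the OGT-KO-labelled libraries at both times, with the exception of Bst2. Ifit1, which binds RNA with foreign caps and blocks its translation, was at 15.6 CPM (14.0 to 17.3) in the OGT-KO-labelled library and 6.07 (5.07 to 7.21) in the control-labelled library with no recovery. After 7 days it was at 15.2 (13.6 to 16.9) and 7.11 (5.99 to 8.38). Both OGT-KO-labelled libraries thus lay above both labelled control, with a ratio of 2.57 (2.10 to 3.17) with no recovery and 2.14 (1.75 to 2.62) at 7 days. This order of the libraries was also present in 74.4% of all 13903 genes.

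Ifit2, an RNA-binding partner of IFIT1, was the lowest gene of the set per kilobase of transcript in every library. It had 11.5 CPM (10.2 to 13.0) in the OGT-KO-labelled library and 2.59 (1.95 to 3.37) in the control-labelled library with no recovery. After 7 days it had 14.0 (12.5 to 15.6) and 1.502 (1.01 to 2.14), the last from 30 reads. The ratio was 4.46 (3.33 to 6.08) with no recovery and 9.32 (6.40 to 14.0) at 7 days, the highest CPM ratio among the 9 genes. Its mean of 7.41 CPM lay under the minimum of 10 CPM that the other 8 genes passed, and its log2(CPM + 1) change of 2.58 after 7 days understates the ratio.

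Ifit3, of the same gene family, had 21.6 CPM (19.8 to 23.6) and 8.56 (7.36 to 9.90) with no recovery in the OGT-KO- and control-labelled libraries. After 7 days it had 22.1 (20.2 to 24.1) and 8.31 (7.10 to 9.68). Its levels at the 2 times were within counting error of each other under either label. Of all windows of 50 bases in the Ifit3 transcripts, 51.2% also occurred in Ifit3b, a near-identical copy, so the split of reads between the copies is uncertain. Ifit3b was at 5.12, 2.07, 5.05 and 3.00 CPM in the OGT-KO- and control-labelled libraries with no recovery and OGT-KO and control after 7 days, and the summed pair was at 26.8, 10.6, 27.2 and 11.3, in the same order between the labels.

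Rsad2, which encodes viperin, an enzyme that makes a chain-terminating nucleotide, had 38.8 CPM (36.3 to 41.4) in the OGT-KO-labelled library and 9.22 (7.97 to 10.6) in the control-labelled library with no recovery, and 40.5 (38.0 to 43.3) and 8.41 (7.19 to 9.78) after 7 days. The ratio of 4.21 (3.60 to 4.94) with no recovery and 4.82 (4.08 to 5.72) at 7 days was over 2-fold at both times, also with median-ratio scaling (log2 changes of 1.28 and 1.5).

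Bst2, which encodes tetherin, a membrane protein that holds budding virus at the cell surface, differed from the others in direction. It was at 123 CPM (119 to 128) in the OGT-KO-labelled library and 150.1 (145 to 155) in the control-labelled library with no recovery, and at 134 (130 to 139) and 117 (112 to 122) after 7 days. The ranges of the labels overlapped, since the control-labelled library was the highest of all 4 with no recovery and the lowest after 7 days. The log2 change between the labels was -0.28 and 0.20 with the deposited scaling, and -0.996 and -0.479 with median-ratio scaling, so that the sign at 7 days flips with the scaling. In mice, tetherin also marks plasmacytoid dendritic cells. Of 6 other markers of those cells, 2 (Runx2 and Siglech) were in the table, with summed CPM of 5.55 and 0.517 with no recovery and 4.48 and 0.601 after 7 days in the OGT-KO- and control-labelled libraries. With no recovery Runx2 was at 3.89 and 0.141, the latter only 3 reads, and Siglech at 1.66 and 0.376. The number of these cells was not tested.

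**Figure D1:**
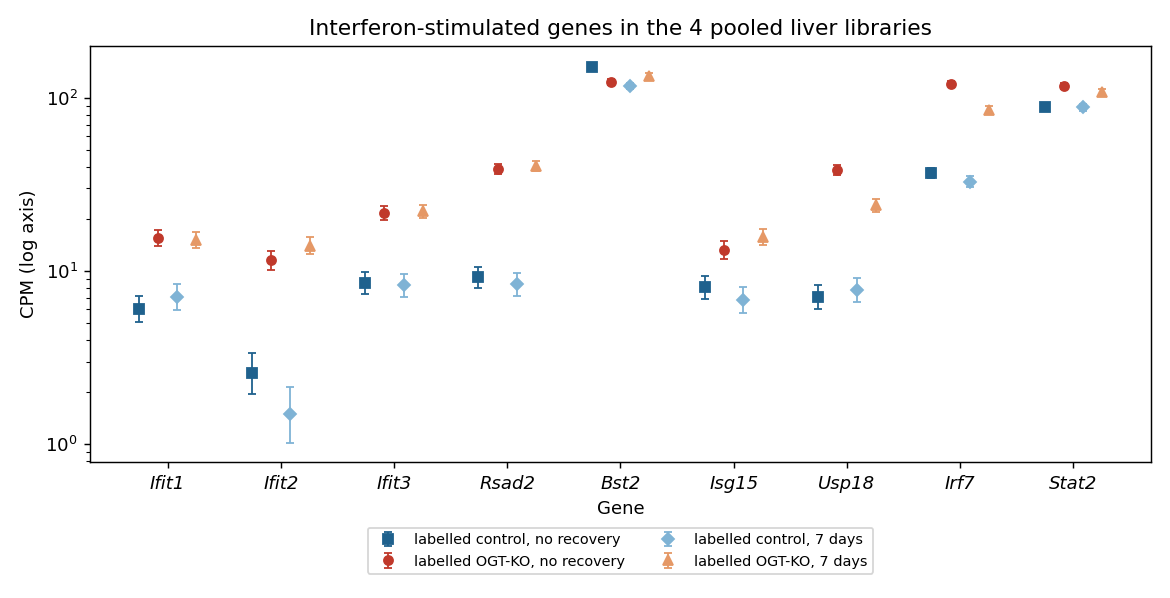
CPM of the 9 interferon-stimulated genes in each of the 4 libraries, on a log axis. Points are single pooled libraries and bars are exact 95% Poisson intervals for counting error. With the deposited scaling, both OGT-KO-labelled libraries lie above both labelled control for every gene but Bst2. That order also holds for 74.4% of all 13903 genes. Ifit2 spans 1.502 to 14.0 CPM. With median-ratio scaling Stat2 joins Bst2, both lower in the OGT-KO-labelled libraries.

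ISG15 is a ubiquitin-like protein that is attached to other proteins and can also be secreted, and USP18 removes it and blocks signalling at the interferon receptor. Isg15 had 13.3 CPM (11.8 to 14.8) in the OGT-KO-labelled library and 8.04 (6.88 to 9.34) in the control-labelled library with no recovery, and 15.8 (14.2 to 17.5) and 6.81 (5.71 to 8.05) after 7 days. The ratio was 1.65 (1.36 to 2.00) with no recovery and 2.32 (1.90 to 2.84) at 7 days. With no recovery, its log2 change of 0.66 was 0.15 above that of the median gene and became 0.00 with median-ratio scaling. The median gene was at -0.19 under that scaling.

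Usp18 had 38.4 CPM (35.9 to 41.0) and 7.10 (6.02 to 8.33) with no recovery in the OGT-KO- and control-labelled libraries, and 24.0 (22.0 to 26.1) and 7.81 (6.63 to 9.14) after 7 days. With no recovery its ratio of 5.40 (4.54 to 6.46) was the highest of the set, and after 7 days it was 3.07 (2.57 to 3.70). Per kilobase of transcript, Isg15 was the higher of this pair in the control-labelled libraries (10.6 against 4.01 CPM per kb with no recovery). In the OGT-KO-labelled library with no recovery the order per kilobase was the other way, with 21.7 for Usp18 and 17.5 for Isg15, but after 7 days Isg15 was again the higher (20.9 against 13.6), so the exchange was in 1 library and did not follow the label.

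Per kilobase of transcript, the transcription factors of the set were its most abundant genes beside Bst2. Irf7, which amplifies the transcription of interferon genes, had 121 CPM (117 to 126) in the OGT-KO-labelled library and 36.9 (34.3 to 39.6) in the control-labelled library with no recovery, and 85.5 (81.7 to 89.4) and 32.9 (30.4 to 35.5) after 7 days. Its ratio between the labels was 3.29 (3.04 to 3.56) with no recovery and 2.60 (2.38 to 2.84) at 7 days, and its share of the summed CPM of the 9 genes was 24.2% and 18.6% in the OGT-KO-labelled libraries against 11.6% and 11.8% in those labelled control.

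Stat2, the DNA-complex subunit that carries the transactivation domain, had 117 CPM (113 to 122) and 88.3 (84.3 to 92.4) with no recovery in the OGT-KO- and control-labelled libraries, and 108 (103 to 112) and 88.2 (84.1 to 92.4) after 7 days. Its ratios of 1.33 (1.25 to 1.41) and 1.22 (1.15 to 1.30) were below the change of the median gene, by 0.10 and 0.19 on the log2 scale. With median-ratio scaling the sign turned, to log2 changes of -0.31 and -0.39.

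Taking all 9 genes with no filter, 6 were at least 2-fold higher on the log2(CPM + 1) scale in the OGT-KO-labelled library with no recovery (Ifit1, Ifit2, Ifit3, Irf7, Usp18 and Rsad2) and 0 were lower by that much. Among all 13903 genes, 33.1% were called higher and 4.35% lower by the same rule. After 7 days 6 were higher (Ifit2, Ifit3, Isg15, Irf7, Usp18 and Rsad2) and 0 lower, against 32.3% and 3.32% of all genes. Ifit1 missed the 2-fold limit after 7 days narrowly, at a log2 change of 0.998. The same 5 genes, Ifit2, Ifit3, Irf7, Usp18 and Rsad2, were higher at both times, as were 26.9% of all genes.

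With the minimum of 10 CPM, 8 of the 9 genes were compared and 5 were higher at each time. Of the 8963 compared genes, 24.4% were higher and 5.69% lower with no recovery, and 22.9% were higher and 4.27% lower after 7 days. Ifit1, Ifit3, Isg15, Usp18 and Rsad2 were each under 10 CPM in both control-labelled libraries. They passed the minimum only through the OGT-KO-labelled libraries, so their higher calls are not independent of it. Among the called genes only Irf7 was above 10 CPM under both labels. The 8 genes had a median log2 change of 1.24 with no recovery, and of 1.21 at 7 days, and for all 9 genes it came to 1.24 and 1.31. Both OGT-KO-labelled libraries lay above both labelled control for 8 of the 9 genes, but this was also so for 74.4% of all genes, and the reverse order held for 12.9%. With median-ratio scaling the 2-fold calls at a minimum of 10 CPM were Usp18 and Rsad2 with no recovery, and Rsad2 alone at 7 days, with 0 lower, where 10.4% of the compared genes were higher and 15.4% lower with no recovery, and 11.6% were higher and 11.8% lower at 7 days. At each time 7 of the 9 genes, all but Stat2 and Bst2, had a log2 change above that of the median gene.

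**Figure D2:**
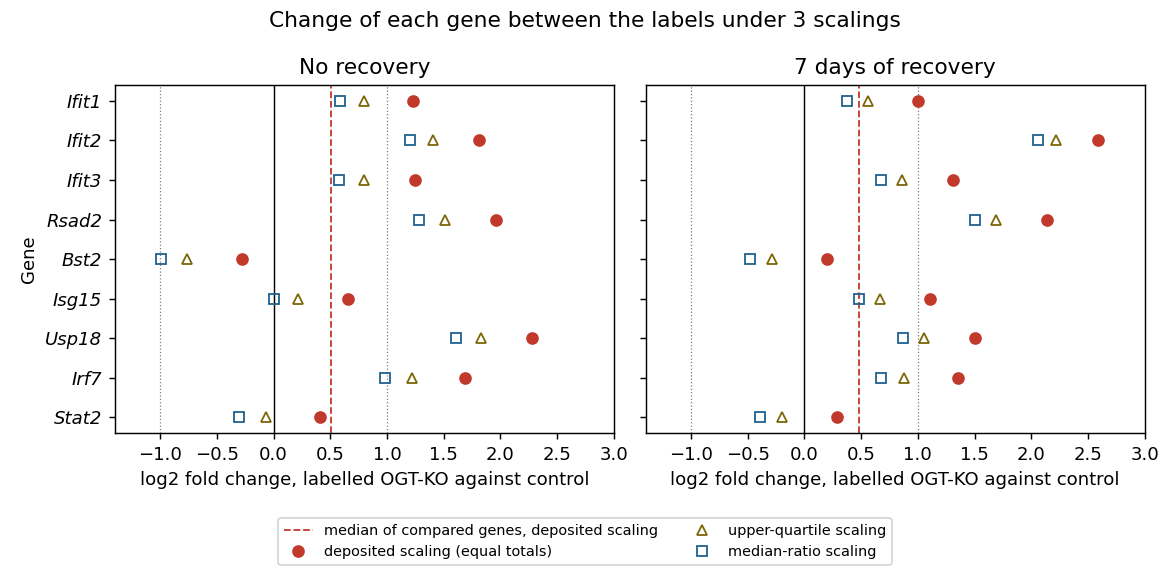
Log2 fold change of each of the 9 genes in the OGT-KO-labelled library against that labelled control, with no recovery and after 7 days, under 3 scalings. Dotted lines mark a 2-fold change and dashed lines the median of the 8963 compared genes with the deposited scaling (0.51 and 0.48). Usp18 with no recovery (2.28) and Ifit2 after 7 days (2.58) lie farthest to the right, while Stat2 at both times and Bst2 after 7 days are higher with the deposited scaling and lower with the other scalings.

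Recovery was examined within each label, where the median gene differed by -0.05 (control) and -0.03 (OGT-KO) on the log2 scale between the times. Of the 9 genes, 0 differed 2-fold between no recovery and 7 days under either label. In all compared genes, 0.245% were called higher and 0.96% lower after 7 days in the control-labelled libraries, and 1.04% higher and 0.435% lower in those labelled OGT-KO.

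The differences with recovery whose counting intervals left out no change were small and of mixed direction. In the OGT-KO-labelled libraries, Usp18 after 7 days was at 0.626 (0.562 to 0.698) of its CPM with no recovery, Irf7 at 0.705 (0.665 to 0.748) and Stat2 at 0.917 (0.868 to 0.969). In the same libraries, Ifit2 was at 1.21 (1.03 to 1.43), Isg15 at 1.19 (1.02 to 1.39) and Bst2 at 1.09 (1.03 to 1.15) of the level with no recovery. For Ifit1, Ifit3 and Rsad2 the interval included no change.

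In the control-labelled libraries, Bst2 after 7 days was at 0.777 (0.737 to 0.820) of its CPM with no recovery, Ifit2 at 0.581 (0.359 to 0.922) and Irf7 at 0.892 (0.803 to 0.991), and for the other 6 genes the interval included no change. The change between the labels was larger after 7 days for Ifit2, by 0.78 on the log2 scale, and for Isg15, by 0.45. For Bst2 the difference was 0.48, from -0.28 to 0.20, so the sign turned and the size did not grow. The change was smaller after 7 days for Usp18 (a difference of -0.77), Irf7 (-0.34) and Ifit1 (-0.23). The variation between mice within a pool is not known, so these differences were not tested.

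Per kilobase of the longest coding transcript in GENCODE M21, Bst2 led in every library, at 147 to 190 CPM per kb (189.5 in the control-labelled library with no recovery). Ifit2 was lowest in every library, at 3.02 and 3.67 CPM per kb in the OGT-KO-labelled libraries and 0.678 and 0.393 in those labelled control. Between these, Irf7 (54.2) stood above Stat2 (26.7) in the OGT-KO-labelled library with no recovery, while Stat2 (20.1) stood above Irf7 (16.5) in the control-labelled library. The same exchange of places was present after 7 days, with 38.2 for Irf7 and 24.5 for Stat2 under the label OGT-KO and 14.7 and 20.1 under the label control.

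Of the interferons themselves little can be said. Of 21 listed ligand genes 1 was in the table, Ifnk, with 1 read in the control-labelled library with no recovery and 0 in the other libraries, which allows up to 0.131 to 0.1502 CPM. The other 20 were not analysed here. Among the receptors, Ifngr1, the ligand-binding chain for interferon gamma, had 56.5 and 16.5 CPM with no recovery and 59.3 and 16.1 after 7 days in the OGT-KO- and control-labelled libraries, with log2 changes of 1.71 and 1.82. Ifngr2, its partner chain, had log2 changes of 1.03 and 0.66, the latter turning to -0.01 with median-ratio scaling.

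Ifnar1 and Ifnar2 together bind type I interferons. Ifnar1 had log2 changes of 0.71 and 0.84, which became 0.01 and 0.17 with median-ratio scaling, and Ifnar2 of 0.02 and 0.25, which became -0.68 and -0.42. Il10rb, a chain shared by the receptors for interferon lambda and interleukin 10, had 27.4 and 4.61 CPM with no recovery and 24.9 and 3.50 after 7 days (log2 changes of 2.34 and 2.52). Ifnlr1, the chain specific to interferon lambda, was low throughout, at 6.78 and 0.282 CPM with no recovery and 6.78 and 0.651 after 7 days.

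Of the 12 receptor and signalling genes, which include Stat2, 11 passed the minimum of 10 CPM. With no recovery 4 were at least 2-fold higher in the OGT-KO-labelled library and 0 lower, after 7 days 2 and 0, where 24.4% and 22.9% of all compared genes were higher. Their median log2 change was 0.76 and 0.66. With median-ratio scaling 2 were higher and 0 lower at each time, with medians of 0.07 and -0.01. By that scaling 10.4% and 11.6% of all compared genes were higher. Irf9, which joins STAT2 in the DNA-binding complex, had log2 changes of 0.21 and 0.08, so that neither Irf9 nor Stat2 reached 2-fold at either time. With median-ratio scaling Irf9 was lower in the OGT-KO-labelled libraries at both times (-0.50 and -0.59), as Stat2 was.

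Further antiviral effectors beside the 9 genes were the longest list. Of 50 listed genes 45 were found and 29 passed the minimum. Of these, 14 were higher and 0 lower with no recovery and 13 higher and 0 lower after 7 days. Among all compared genes 24.4% and 22.9% were higher at these times. In the list 13 were higher at both times. That share was not counted for the compared genes, but with no filter it was 26.9% of all 13903 genes. Their median log2 change was 0.94 and 0.98. With median-ratio scaling 6 were higher and 2 lower with no recovery, and 10 and 2 at 7 days, with medians of 0.24 and 0.34. The lower genes were Ifitm3 and Apol9b at both times. Among all compared genes 10.4% and 11.6% were higher by that scaling, and 15.4% and 11.8% lower. Ifi27l2b and Ifi27l2a, small interferon-inducible proteins, had log2 changes of 2.98 and 3.21 and of 2.18 and 2.97. Oasl2, of the oligoadenylate synthetase family, was at 30.2 and 6.49 CPM with no recovery and 35.4 and 3.50 after 7 days (log2 changes of 2.06 and 3.01). Slfn9, of the Schlafen family, had log2 changes of 2.17 and 2.98, and was also 2-fold higher after 7 days than with no recovery in the OGT-KO-labelled libraries (34.1 against 15.8 CPM). Ifi27l2a, Ifi27l2b, Oasl2 and Slfn9 were each under 10 CPM in both control-labelled libraries. They passed the minimum only through the OGT-KO-labelled libraries.

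The genes chiefly known as targets of interferon gamma were a smaller group. Of 24 listed, 22 were found and 9 passed. With no recovery 3 were higher and 0 lower, and after 7 days 2 and 0 (median log2 change 0.80 and 0.38). Among all compared genes 24.4% were higher with no recovery and 22.9% after 7 days, the latter close to 2 of 9. With no filter 13 and 11 of the 22 were higher, against 33.1% and 32.3% of all genes. With median-ratio scaling 2 were higher at each time, with medians of 0.10 and -0.28. By that scaling 1 was lower with no recovery (Iigp1) and 2 at 7 days (Iigp1 and Ifi47). Among all compared genes 10.4% and 11.6% were then higher, and 15.4% and 11.8% lower. Gbp9, a guanylate-binding protein, had log2 changes of 2.36 and 1.75, and Irf8, a transcription factor of macrophages and dendritic cells, of 2.00 and 2.50. Gbp9 and Irf8 were each under 10 CPM in both control-labelled libraries and passed the minimum only through those labelled OGT-KO. The median of this list lay below that of all compared genes after 7 days.

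ISG15 conjugation was represented by 6 genes, Isg15 and Usp18 among them, of which 5 passed. With no recovery 3 were higher and after 7 days 4, with 0 lower, where 24.4% and 22.9% of all compared genes were higher. The median log2 change of the list was 1.07 and 1.13. With median-ratio scaling 1 was higher with no recovery (Usp18) and 0 at 7 days, with 0 lower and medians of 0.40 and 0.48. By that scaling 10.4% and 11.6% of all compared genes were higher. Ube2l6, the conjugating enzyme for ISG15, had 176 and 63.2 CPM with no recovery and 129 and 57.6 after 7 days, and Uba7, its activating enzyme, had 22.6 and 10.2, then 30.04 and 13.2. The log2 changes were 1.46 and 1.15 for Ube2l6 and 1.07 and 1.13 for Uba7, and all of these were under 2-fold with median-ratio scaling.

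Sensors of foreign nucleic acid and their adapters held the single gene of these lists that was at least 2-fold lower with the deposited scaling. Of 16 genes 12 passed, with 2 higher and 1 lower with no recovery and 3 higher and 1 lower after 7 days (median log2 change 0.56 and 0.51, near that of all compared genes). Among all compared genes 24.4% were higher and 5.69% lower with no recovery, and 22.9% and 4.27% after 7 days. With median-ratio scaling 1 was higher at each time, and the medians were -0.14 and -0.15. By that scaling 2 were lower with no recovery (Mavs and Irf3) and 3 at 7 days (with Myd88 added). Among all compared genes 10.4% and 11.6% were then higher, and 15.4% and 11.8% lower. Mavs, the mitochondrial adapter of the cytoplasmic RNA sensors, was at 40.1 and 111 CPM with no recovery and 46.3 and 94.7 after 7 days, log2 changes of -1.45 and -1.02. Tmem173, which encodes the DNA-sensing adapter STING, was at 21.6 and 2.26, then 21.9 and 1.60, log2 changes of 2.80 and 3.14. Tlr3, an endosomal receptor for double-stranded RNA, had log2 changes of 1.37 and 1.40. Tmem173 and Tlr3 were each under 10 CPM in both control-labelled libraries and passed the minimum only through those labelled OGT-KO.

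The negative regulators numbered 9, of which 8 were found and 7 passed, Usp18 among them. With no recovery 3 were higher and 0 lower, after 7 days 2 higher and 0 lower, where 24.4% and 22.9% of all compared genes were higher. Their median log2 change was 0.99 and 0.68. With median-ratio scaling 1 was higher (Usp18) and 1 lower (Pias4) with no recovery, and 0 were either at 7 days. The medians were then 0.32 and 0.02. Among all compared genes 10.4% and 11.6% were higher by that scaling, and 15.4% and 11.8% lower. Beside Usp18, Ptpn6, a phosphatase chiefly of blood cells, was higher at both times, at 47.4 and 22.1 CPM with no recovery and 39.6 and 15.8 after 7 days, but under 2-fold with median-ratio scaling (log2 changes of 0.37 and 0.62).

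**Figure D3:**
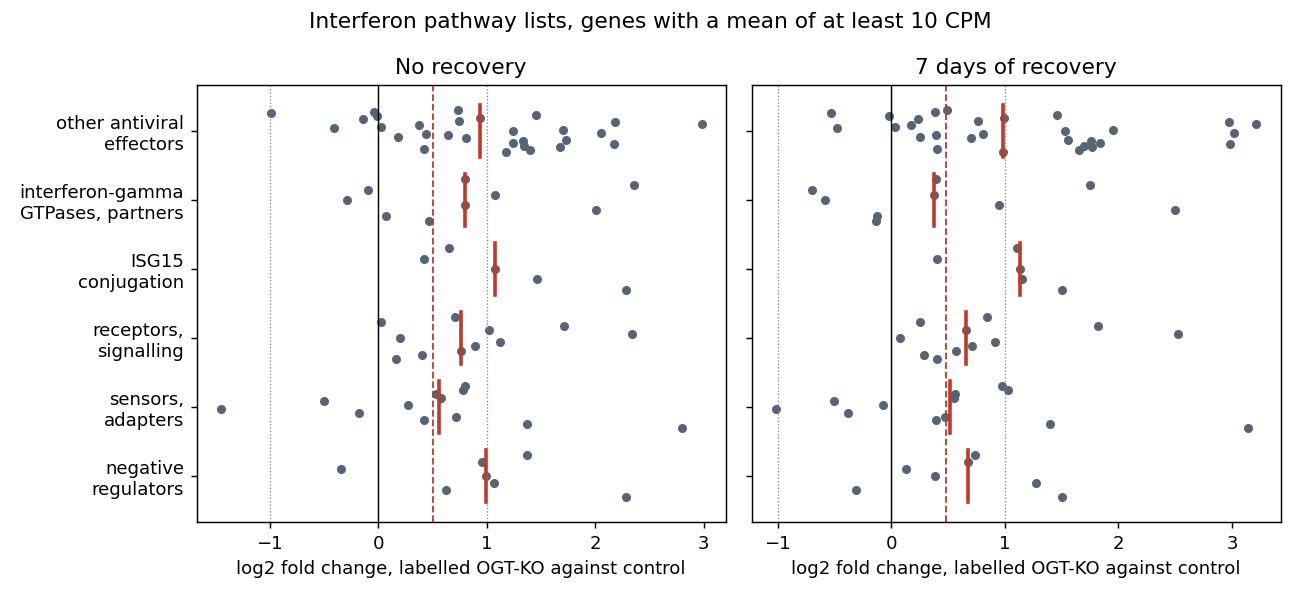
Log2 fold change in the OGT-KO-labelled library against that labelled control for genes of 6 interferon pathway lists with a mean of at least 10 CPM, at each time, with the deposited scaling. Each point is a gene, short solid lines are list medians, dashed lines the median of the 8963 compared genes, and dotted lines a 2-fold change. Mavs is the point at -1.45 and -1.02 among sensors and adapters, and the interferon gamma list has the lowest median after 7 days (0.38). With median-ratio scaling points shift left, and those near the dashed line change sign or lie near 0.

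Markers of cells other than hepatocytes differed between the labels in the same direction as most of the 9 genes. Summed over the 9 genes, CPM were 501 and 317 with no recovery, and 459 and 278 at 7 days, in the OGT-KO- and control-labelled libraries, a ratio of 1.58 and 1.65. With median-ratio scaling this difference of the sums was gone, at 383 and 399 with no recovery and 369 and 359 at 7 days, ratios of 0.960 and 1.03. Bst2 and Stat2, both lower under that scaling, held 47.4% and 27.9% of the sum in the control-labelled library with no recovery. The median log2 change of the 9 genes under it was 0.58 with no recovery and 0.68 at 7 days. By that scaling the Kupffer cell sum still differed, with ratios of 2.02 and 3.46, and the monocyte and macrophage sum, with ratios of 3.28 and 7.71. That of the 5 Kupffer cell markers, all found, was 610 and 183 with no recovery and 364 and 65.4 after 7 days. That of the 8 markers of monocytes and macrophages, all found, was 667 and 124, then 599 and 48.3. The hepatocyte markers (6 of 7 found) went the other way, at 52857 and 76281, then 63908 and 87544. Alb, the largest part of this sum, had log2 changes of only -0.21 and -0.08. The other hepatocyte markers changed by more, from -0.44 (Ttr after 7 days) to -2.23 (Serpina1a with no recovery).

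Other cell types in the same order of libraries were endothelial cells (6 of 6 markers; 424 and 216, then 310 and 149), hepatic stellate cells (5 of 5; 373 and 66.1, then 407 and 46.8) and bile duct cells (4 of 4; 171 and 12.7, then 212 and 17.5). With median-ratio scaling the ratios between the labels were 1.20 and 1.29 for endothelial cells. They were 3.43 and 5.41 for stellate cells, and 8.19 and 7.52 for bile duct cells. Blood cell lists were low. Neutrophil markers (3 of 4) summed to 14.0 and 2.40, then 23.4 and 1.001, other dendritic cells (4 of 4) to 9.49 and 3.20, then 9.66 and 2.90, T and NK cells (3 of 7) to 4.64 and 1.08, then 3.01 and 0.551, and B cells (3 of 4) to 3.63 and 1.32, then 2.22 and 0.901. With median-ratio scaling B cells had the smallest ratios of these blood cell lists, at 1.67 and 1.53. Cd8a and Flt3 were at 0 in the control-labelled library after 7 days. The part of these cells in the levels of the interferon-stimulated genes was not tested, and in bulk RNA more cells of a type and more RNA per cell cannot be told apart.

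With recovery the sums moved as follows. In the control-labelled libraries the Kupffer cell sum after 7 days was 0.357 of that with no recovery and the monocyte and macrophage sum 0.390, while the sum of the 9 genes was 0.876 of it. In the OGT-KO-labelled libraries the same ratios were 0.597, 0.898 and 0.916.

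**Figure D4:**
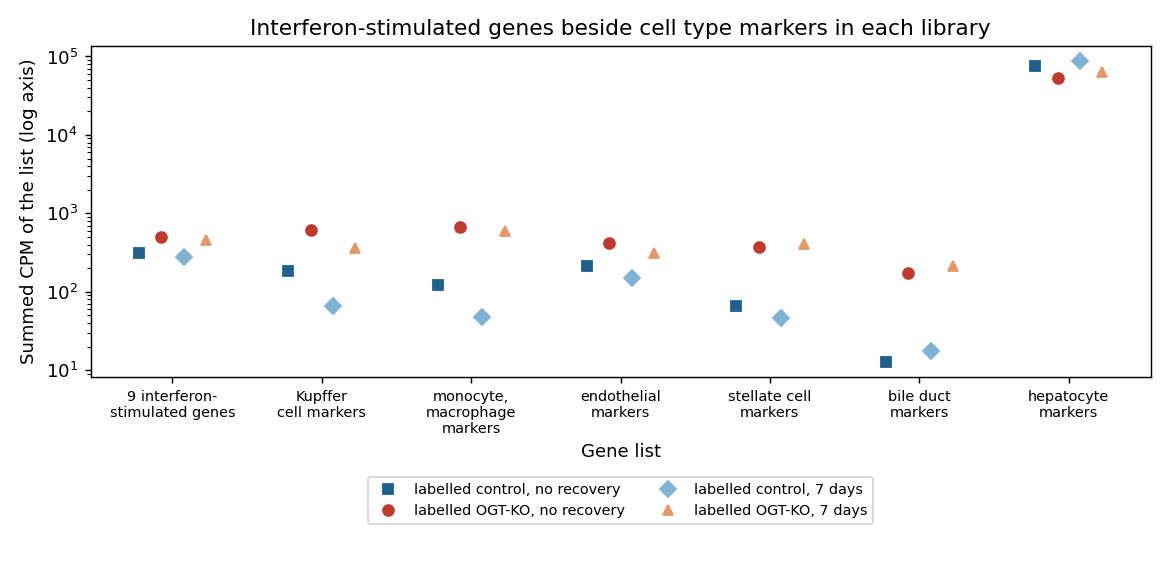
Summed CPM of the 9 interferon-stimulated genes and of 6 cell marker lists in each of the 4 libraries, on a log axis, with the deposited scaling. Points are single pooled libraries. The 9 genes differ 1.58-fold and 1.65-fold between the labels, the markers of monocytes and macrophages 5.40-fold and 12.4-fold, and hepatocyte markers are lower in the OGT-KO-labelled libraries. With median-ratio scaling the sums of the 9 genes differ 0.960-fold and 1.03-fold, and those of monocytes and macrophages 3.28-fold and 7.71-fold. The difference in the sum of the 9 genes thus does not hold, but that sum is weighted to Bst2 and Stat2. The median log2 change of the 9 genes under that scaling is 0.58 and 0.68.

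The median pattern of the 9 genes over the libraries was not rare in the table. Their median profile, on the log2(CPM + 1) scale centred on each gene's mean over the 4 libraries, was 0.62 and -0.66 with no recovery and 0.56 and -0.66 after 7 days in the OGT-KO- and control-labelled libraries. By Euclidean distance Ifit3 (0.103) and Ifit1 (0.206) lay nearest to it among the 9 genes, and Bst2 (1.32) and Ifit2 (1.04) farthest. Stat2 (0.906), Rsad2 (0.815) and Usp18 (0.774) also lay beyond 0.5, so the profile stands for only part of the set. Among the 5 nearest other genes were Als2cl (0.0693), Ahdc1 (0.0793), Mef2a (0.0819) and Unc45a (0.0847). Of the 8963 compared genes, 1735 outside the set lay within 0.5.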

How the data were processed

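One mRNA-seq library per condition was analysed, 4 in all, each from the pooled liver RNA of 3 mice. The authors deposited CPM for 13903 genes: each column sums to 1000000, and every value was a whole multiple of 1 read within 0.02 reads, so whole reads were recovered. The submitters' processing notes name STAR, DESeq2 and GRCm39 without roles or versions; the counter, annotation and filter are not given in the sources used here. The 9 genes and all gene and marker lists were chosen with earlier results of these data known.

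Changes are differences of log2(CPM + 1), which understates the change of low genes, and 2-fold was the limit for a call. Genes averaging at least 10 CPM were compared (8963), and counts over all 9 genes were also made with no filter. That mean is over all 4 libraries. A gene that is low under the control label can therefore pass through the other label. Among the named list genes Ifi27l2a, Ifi27l2b, Oasl2, Slfn9, Gbp9, Irf8, Il10rb, Tmem173 and Tlr3 did so. Some list genes not named did so too, so the higher calls in the lists are not independent of the minimum. With 1 library per condition no replicate test was possible. Levels have exact Poisson and ratios exact binomial 95% intervals, which cover counting error only; the reads carry no stated molecular identifiers.

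All 9 genes are given. From each pathway list up to 4 genes are named, those past the minimum and 2-fold changed in one direction at both times, by mean size of change, with all listed ligands and receptors found and the 5 genes nearest to the median profile, of which 1 is not reported here. The remaining genes named (Irf9, Ifit3b, Runx2, Siglech, Cd8a and Flt3) were added as a subunit of the complex, as a near-identical copy, or as markers found in or at 0 in the table. Other settings were pseudocounts of 0.1 and 10, no filter, a mean of at least 50, upper-quartile and median-ratio scaling, thresholds of 1.5-fold and 4-fold, the sum of Ifit3 and Ifit3b, and an exact binomial test of the reads with Benjamini-Hochberg adjustment. Median-ratio scaling of the pathway lists and marker sums was added after the data were seen, as were the names of list genes lower under it. Transcript lengths came from GENCODE M21 (GRCm38) and promoter windows from RefSeq. Steps were tested on simulated reads. Python 3.11.15, numpy 2.4.6, pandas 2.3.3, scipy 1.17.1 and matplotlib 3.10.9 were used.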

Additional observations from a re-analysis of the deposited data

Results flagged for a closer look

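In 2 genes the change had opposite signs in the 2 settings compared, with counting intervals of both ratios that leave out no change. Ifit2 was lower after 7 days than with no recovery in the control-labelled libraries (log2 change -0.52) and higher in those labelled OGT-KO (0.26), and both signs held under every scaling run. Bst2 was lower after 7 days in the control-labelled libraries (-0.36) and higher in those labelled OGT-KO (0.12), again under every scaling run. Between the labels, Bst2 was lower in the OGT-KO-labelled library with no recovery (-0.28) and higher after 7 days (0.20), but it was lower at both times with median-ratio scaling (-0.996 and -0.479) and with upper-quartile scaling (-0.76 and -0.28). With 1 library per condition none of these differences was tested.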

How the results depend on the processing

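With a minimum of 10 CPM, 5 genes of the set were at least 2-fold higher at each time. With no recovery this count became 3 with a pseudocount of 10, 1 with a mean of at least 50 CPM, 3 with upper-quartile scaling, 2 with median-ratio scaling and 1 at 4-fold. After 7 days the counts were 2, 1, 2, 1 and 1 in the same order. The shares of all compared genes called higher by a pseudocount of 10, a mean of at least 50 CPM and 4-fold were 15.3%, 16.3% and 7.71% with no recovery and 15.0%, 15.6% and 8.79% after 7 days, and at 50 CPM the set holds 3 genes (Irf7, Stat2 and Bst2). The median log2 change, 1.24 with no recovery and 1.21 after 7 days, became 0.72 and 0.71 with a pseudocount of 10, 0.41 and 0.28 with a mean of at least 50 CPM, 0.80 and 0.76 with upper-quartile scaling, and 0.58 and 0.58 with median-ratio scaling. At 1.5-fold, 1 gene (Usp18) was lower after 7 days in the OGT-KO-labelled libraries, as were 2.33% of all compared genes. Between the labels, 6 genes were at least 1.5-fold higher at each time, as were 45.5% of compared genes with no recovery and 43% after 7 days. Over all compared genes, 2185 were higher and 510 lower with no recovery and 2050 and 383 after 7 days, but 935 and 1381, and 1038 and 1055, with median-ratio scaling, and 1208 and 981, and 1215 and 740, with upper-quartile scaling. The exact binomial test of the reads, which compares libraries and not conditions, removed none of these calls. Which scaling is closer to the RNA content of the livers was not tested, and counting depth limits Ifit2 most, with 30 reads in the control-labelled library after 7 days. No paired analysis was possible because each condition has 1 library.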
